A study of Mus musculus with 3 samples.

Results

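Group 2 innate lymphoid cells (ILC2s) of mouse dorsal skin were looked for in single-cell transcriptomes of CD45+ enriched cells. A cell was a member when at least 3 of 7 genes, Gata3, Il13, Il5, Areg, Rora, Il7r and Icos, had 1 or more UMIs, where a UMI is a molecular identifier that counts 1 captured transcript. A member also had no UMI of Cd3e, Cd3d or Cd3g, none of Cpa3 or Mcpt8, at most 2 of C1qa, C1qb and C1qc together, and fewer than 5 of Krt14 and Krt5 together. The rule found 145 members among 16604 kept cells. Members were thus selected on the measured UMIs of these genes, whose levels are given as a description.

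There were 3 libraries, 1 per group, all from male C57Bl/6 mice of 8 weeks with dorsal hair follicles in telogen, the resting phase. WT_Ctrl came from wild-type (WT) skin without ultraviolet B (UVB) light, and WT_UV from wild-type skin after 3 UVB exposures. RP_UV came from skin given the same exposures in RP mice (Rosa26-rtTA; Tre-Ptgs2), in which doxycycline turns on a rat Ptgs2 transgene in all tissues that carry the Rosa26 driver. Ptgs2 encodes Cox-2, the enzyme that starts prostaglandin synthesis, and the question was how UVB and excess Cox-2 change the immune cells of the skin. No group had a replicate library, so no test was made, and every interval below is a 95% interval that covers counting error only. Per the study, n was 1 for each wild-type library and RP_UV came from a single mouse, and both irradiated skins were collected on the day of the third exposure. Whether the wild-type mice also drank doxycycline is not given in the sources used here.

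ILC2s are lymphocytes without a rearranged antigen receptor that live in tissues, and they depend on the transcription factors GATA3 and RORα. They respond to alarm cytokines and to cytokines of the common γ chain, such as the ligand of the IL-7 receptor, and release IL-5, IL-13 and amphiregulin, which recruit eosinophils, act on epithelium and take part in tissue repair. In mouse skin they are known to lie near hair follicles and to carry the receptor for IL-18 more than the receptor for IL-33.

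After filtering, WT_Ctrl kept 5309 cells at a median of 4246 UMIs, WT_UV 5225 cells at 10557 and RP_UV 6070 cells at 3774. WT_UV was sequenced more deeply, and the labels give WT_UV a flow cell of its own, whereas the other 2 libraries had 1 in common, so sequencing run and UVB cannot be told apart between WT_Ctrl and WT_UV. Ptgs2 stood at 14.4 CPM (UMIs per 1000000 summed UMIs, 13–15.9) over all kept cells of WT_Ctrl, at 117 CPM (115–120.1) for WT_UV and at 486 CPM (478–494) for RP_UV. The order of these values is that of the labels, although the files do not show how far reads of the rat transgene were counted as the mouse gene. Between 8 and 11 barcodes were shared by any 2 libraries, and no shared barcode was a member in both.

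The data went in part against the label. Ptprc, the gene of CD45, which every lymphocyte carries, had a UMI in 23 of 51 members of WT_Ctrl, 72 of 87 of WT_UV and 0 of 7 of RP_UV. In 27, 17 and 5 members of WT_Ctrl, WT_UV and RP_UV, 11 keratinocyte genes that the rule had not used (Krt1, Krt10, Krt15, Krt17, Krt79, Krtdap, Dsp, Perp, Sfn, Lgals7 and Dmkn) made up 3.04% to 9.92%, 4.23% to 11.7% and 7.74% to 14.4% of the UMIs of the cell. All of these keratinocyte-panel members had Gata3 and Rora, all but 1 had Areg, none had Il13, Il5 or Icos, and Ptprc was found in 1, 2 and 0 of them. They were deep cells, with medians of 10908, 29644 and 10247 UMIs.

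Gata3 and Rora were also found in keratinocytes. Among 870, 339 and 1000 reference keratinocytes of the 3 libraries, which had at least 5 UMIs of Krt14 and Krt5 and no Ptprc, Gata3 was found in 652, 208 and 395 cells and Rora in 421, 135 and 262. Il13 was found in 2, 1 and 1 of the same cells. A further 4 members of WT_Ctrl and 7 of WT_UV had 2.72% to 6.79% and 1.93% to 5.71% of their UMIs in 16 macrophage and dendritic cell genes, and 1 member of RP_UV had 3.53% in Schwann cell and melanocyte genes.

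The other 20 members of WT_Ctrl, 63 of WT_UV and 1 of RP_UV had less than 1% of their UMIs in each of these 3 panels and are called lymphoid members here. This limit was set after the values had been seen. Ptprc was found in 18, 63 and 0 of them. The limit fell in a gap, since the keratinocyte panel reached at most 0.083% of the UMIs of a lymphoid member in WT_Ctrl and 0.63% in WT_UV. For the macrophage and dendritic cell panel these highest shares were 0.429% and 0.68%, a narrower gap. The lymphoid member of WT_UV with 0.68% held 128 UMIs of that panel among 18811. Of the rule genes it had only Rora (1 UMI), Il7r (10) and Icos (1), and its identity was not tested. Lymphoid members were 39.2% of the members of WT_Ctrl, 72.4% of those of WT_UV and 14.3% of those of RP_UV.

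**Figure D1:**
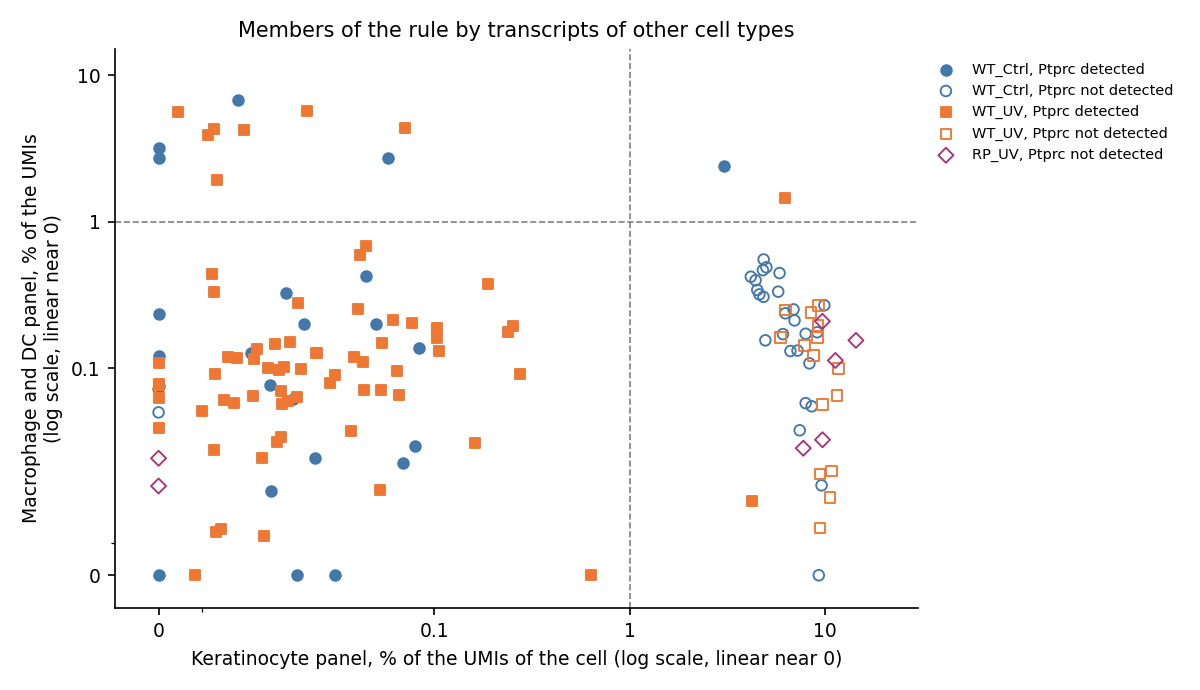
Each point is 1 of the 145 members, placed by the percent of its UMIs in the keratinocyte panel (x axis) and in the macrophage and dendritic cell panel (y axis), both on log scales that are linear near 0. Filled points had a UMI of Ptprc, and dashed lines mark the limit of 1%. A group with 3.04% or more in the keratinocyte panel, mostly without Ptprc, stands apart from the lymphoid members at the lower left.

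An unsupervised clustering of the 145 members gave 4 clusters. Cluster 1, with 85 cells, held 83 of the 84 lymphoid members, and its leading genes were Thy1, Cxcr6, Gem, Ptprcap, Il13, Hcst and Ltb, of which the rule had used only Il13. Cluster 2, with 29 cells, was led by Krt15, Clca3a2 and Col17a1, genes of the basal epidermis and hair follicle, and cluster 3, with 22 cells, by Klk7, Cdsn, Ivl and other genes of the differentiated epidermis. Cluster 4, with 9 cells, was led by the myeloid genes Mgl2, Lyz2 and Cd209a. The remaining lymphoid member lay in cluster 2, with 26 keratinocyte-panel members and 2 of the macrophage and dendritic cell panel. Cluster 1 also held 1 keratinocyte-panel member and 1 of the Schwann cell and melanocyte panel. These leading genes describe the clusters, which were made from the same values.

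At the edge of the rule, 35, 28 and 6 members had exactly 3 markers, of which 5, 8 and 1 were lymphoid. A further 133, 70 and 26 cells met every other limit with exactly 2 markers, but only 7, 4 and 2 of them passed the panel limits and resembled lymphoid members in this respect. The Cd3 limit alone kept out 107, 360 and 8 cells, of which 12, 21 and 0 had a single Cd3 UMI. The keratin limit alone kept out 13, 15 and 18 cells, and the C1q limit 1, 12 and 1. No cell was kept out by Cpa3 or Mcpt8 alone.

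The share of kept cells that were members was 0.961% (0.716–1.26) in the control library. It was 1.67% (1.34–2.05) after UVB in wild type and 0.115% (0.0464–0.237) after UVB in RP mice. The share of WT_UV was 1.73 times (1.23–2.44) that of WT_Ctrl, and the share of RP_UV was 0.0693 times (0.0321–0.149) that of WT_UV and 0.12 times (0.0545–0.264) that of WT_Ctrl. For lymphoid members the shares were 0.377% (0.23–0.581), 1.21% (0.928–1.54) and 0.0165% (0.000417–0.0918), which is 3.2 times (1.94–5.29) as high in WT_UV as in WT_Ctrl. The interval of the members' ratio between WT_UV and WT_Ctrl included 1 when all deposited barcodes were used, at 1.33 (0.987–1.8), and with a further limit on UMIs of other cell types, at 1.74 (0.902–3.36). With that limit the lymphoid ratio was 1.93 (0.899–4.15). The limit is a fixed count of UMIs per cell, with the NK list among them, so a deeper cell passes it less easily. It left 10 of 20 lymphoid members of WT_Ctrl and 19 of 63 of WT_UV.

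A deeper library gives more cells with 3 detected markers. With markers counted after every kept cell had been thinned to 1500 UMIs and the other limits left on all UMIs, the lymphoid members were 11 of 4773 cells (WT_Ctrl), 46 of 4918 (WT_UV) and 1 of 4827 (RP_UV), and the share of WT_UV was 4.06 times (2.1–7.83) that of WT_Ctrl. Among cells with a UMI of Ptprc alone, 18 of 2742 in WT_Ctrl (0.656%) and 63 of 4364 in WT_UV (1.44%) were lymphoid members, against 0 of 2739 for RP_UV, where 3 counts, the limit that a count of 0 allows, would be 0.11% and the exact upper bound was 0.135%. WT_UV was then 2.2 times (1.31–3.71) WT_Ctrl. With only 2 markers required, the ratio for all members was 0.867 (0.703–1.07), below 1 but with an interval that included it. Lymphoid members under this requirement stayed higher in WT_UV, at 2.52 times (1.62–3.94). A share of kept cells also moves with every other cell type in the suspension.

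T cells, taken as cells with at least 2 Cd3 UMIs, stood at 7.04%, 13.6% and 0.939% of kept cells, and their share in WT_UV was 1.93 times (1.72–2.18) that of WT_Ctrl. In RP_UV it was 0.0689 times (0.0528–0.09) that of WT_UV. NK cells numbered only 14, 18 and 10, and each of the 3 intervals of their ratios included 1. The T cell ratios lay in the same directions as those of the lymphoid members.

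**Figure D2:**
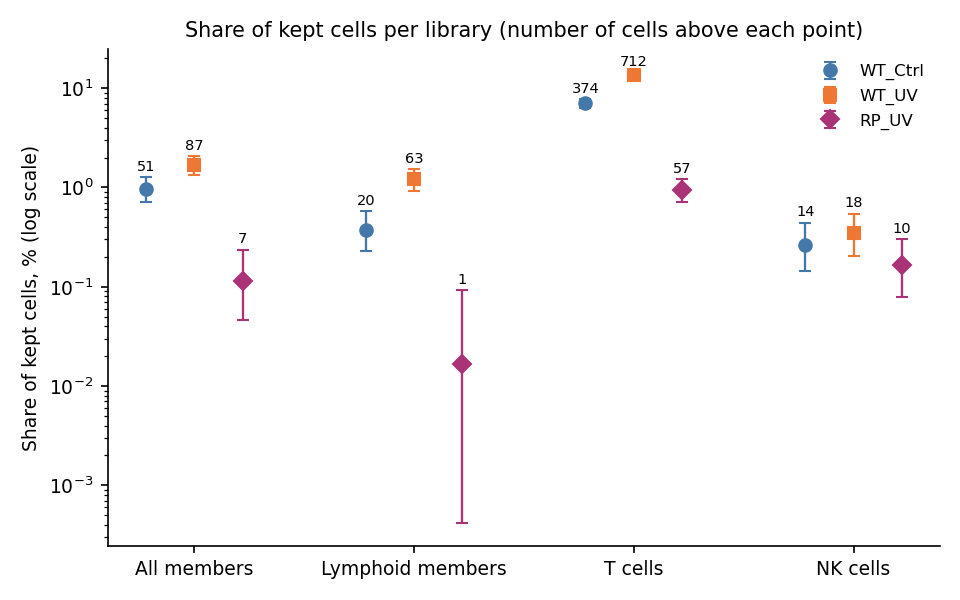
Share of kept cells in percent (log scale) that were members, lymphoid members, T cells or NK cells in each of the 3 libraries, with exact 95% binomial intervals and the number of cells above each point. Members, lymphoid members and T cells share the order WT_UV, WT_Ctrl, RP_UV, and the NK cell intervals overlap.

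The single lymphoid member of RP_UV held 2787 UMIs. It had 5 UMIs of Gata3, 4 of Rora, 3 of Il7r, 2 of Il1rl1, 1 of Thy1 and 1 of Kit, and none of Il13, Il5, Areg, Icos or Ptprc. Ctla2a, which encodes an inhibitor of cysteine proteases, had 95 UMIs in it, against a highest value of 4 in a lymphoid member of WT_Ctrl and 63 in one of WT_UV. It also held 6 UMIs of Calca. With 1 cell, no level of lymphoid members can be given for RP_UV, and the expression comparisons below are between WT_Ctrl and WT_UV.

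Counts of the rule genes in lymphoid members are a description, since the rule required at least 3 of the 7. Lymphoid members had a median of 4 of these genes in WT_Ctrl and 5 in WT_UV. Their medians were 3062.5 UMIs with 1275 genes (WT_Ctrl) and 6827 UMIs with 2247 genes (WT_UV), and their summed UMIs came to 63790 and 461597. In WT_Ctrl, 20 of 20 had Il7r, 18 Rora, 14 Icos, 12 Gata3, 10 Areg, 9 Il13 and 2 Il5. In WT_UV, 63 of 63 had Il7r, 61 Rora, 59 Icos, 52 Gata3, 41 Il13, 27 Areg and 16 Il5. Members that carried 5 or more of the 7 markers numbered 7 of 20 and 45 of 63.

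Depth per cell differed between these libraries, so detection was also counted after thinning. The rule had already picked these cells at full depth on the same genes, with medians of 3062.5 and 6827 UMIs. Thinning does not undo this selection, so the shares of rule genes are a description and no equal-depth comparison of the 2 libraries. After thinning to 1500 UMIs, Gata3 was found in 8 of 20 lymphoid members of WT_Ctrl (40%, 19.1–63.9) and in 29 of 61 of WT_UV (47.5%, 34.6–60.7). Il13 was found in 35% (15.4–59.2) and 42.6% (30–55.9), Areg in 40% and 27.9%, Icos in 55% and 55.7%, and Il7r in 70% and 65.6%. The intervals of the 2 libraries overlapped for each of these genes. Keratinocytes thinned in the same way had a UMI of Il13 in 0.12% and 0% of cells, of Areg in 0.24% and 1.01%, of Il7r in 0.12% and 0.336% and of Icos in none, at median depths of 6122 and 14047 UMIs before thinning. Their shares for Gata3 were 39.7% and 22.8%, so a UMI of Gata3 alone did not set lymphoid members of WT_Ctrl apart from them.

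T cells thinned in the same way, 349 of WT_Ctrl and 700 of WT_UV, had a UMI of Il13 in 4.3% and 5.86% of cells, of Areg in 8.02% and 7.43%, of Icos in 26.9% and 24% and of Il7r in 25.2% and 27.6%. Each of these shares was lower than that of the lymphoid members of the same library, which the rule had selected for these genes. Il18r1, which the rule had not used, was found in 16.9% and 18.1% of thinned T cells.

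Summed levels in CPM placed the lymphoid members above T cells of the same library for each rule gene, as the rule required in part. Rora, which encodes RORα, stood at 847 CPM (636–1105) in lymphoid members of WT_Ctrl and 929 CPM (844–1022) in those of WT_UV, and at 174 and 206 CPM in T cells. Il7r, the receptor chain for IL-7, stood at 956 and 754 CPM, against 243 and 269 CPM in T cells. Icos, a co-stimulatory receptor, stood at 674 and 611 CPM, and Gata3 at 298 CPM (179–465) and 477 CPM (416–544). Between WT_Ctrl and WT_UV lymphoid members, the ratio was 1.1 (0.826–1.49) for Rora, 0.788 (0.599–1.05) for Il7r, 0.906 (0.656–1.28) for Icos and 1.6 (1–2.71) for Gata3. The first 3 intervals included 1, and that of Gata3 began at it.

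**Figure D3:**
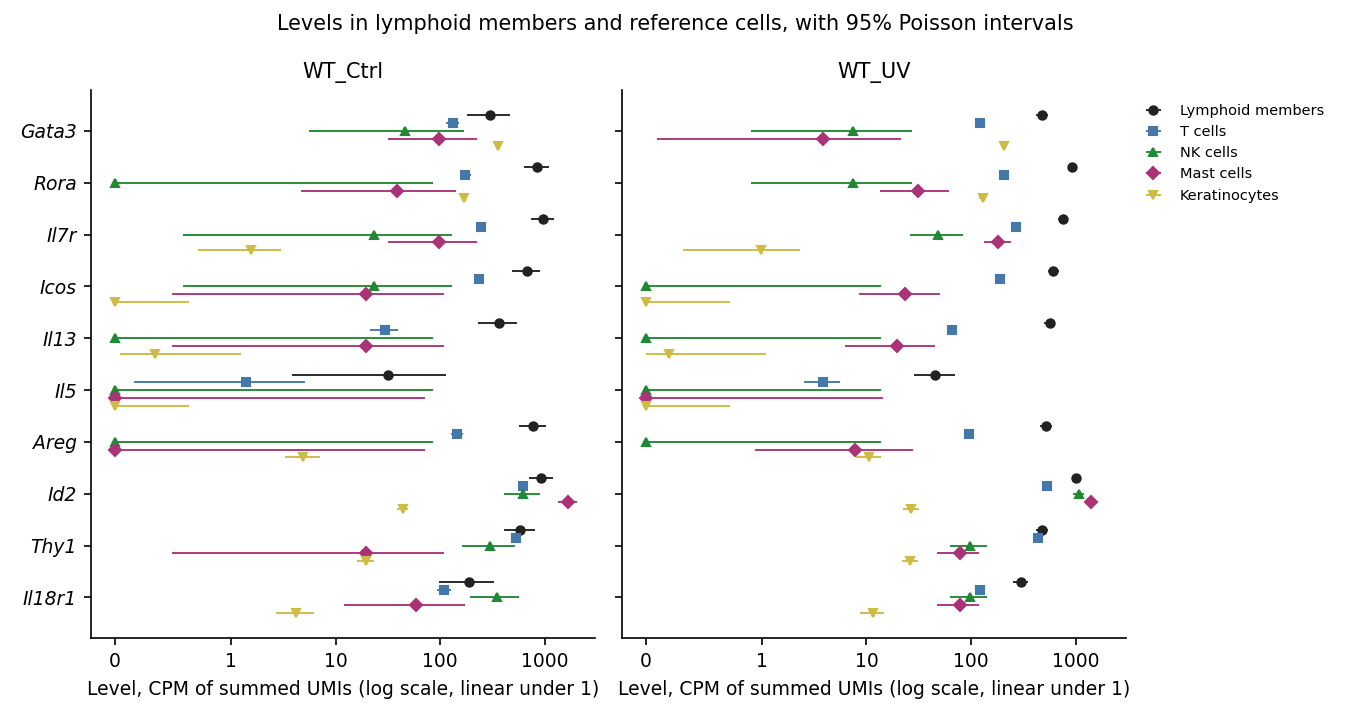
Summed level in CPM (log scale, linear under 1) of 7 rule genes and of Id2, Thy1 and Il18r1 in lymphoid members and in T cells, NK cells, mast cells and keratinocytes of WT_Ctrl (left) and WT_UV (right), with exact 95% Poisson intervals. Il13, Il5, Areg, Icos and Il7r were highest in lymphoid members in both libraries, whereas Gata3 in keratinocytes of WT_Ctrl (355 CPM) lay within the interval of the lymphoid members.

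Among 16 receptors and surface proteins that the rule had not used, 15 had a UMI in lymphoid members. Of these, 6 reached the mean of 100 CPM needed to enter the comparison. None differed by 2-fold or more between WT_Ctrl and WT_UV, against 7.99% of all genes entered. Il18r1, the receptor chain for IL-18, was found in 8 of 20 and 52 of 63 lymphoid members, at 188 CPM (97.2–329) and 299 CPM (251–353), and in 30% and 42.6% of cells after thinning. Il1rl1, the receptor for IL-33, was found in 3 of 20 and 5 of 63, with 7 and 11 UMIs in all. Il17rb, the receptor chain for IL-25, had 3 and 16 UMIs. Il18r1 was thus found in more of these cells than Il1rl1 or Il17rb, although such counts also depend on how well each transcript is captured.

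Thy1, a surface protein of lymphocytes, stood at 580 and 481 CPM, close to T cells at 533 and 439 CPM. Il2ra, the high-affinity chain of the IL-2 receptor, had 8 and 50 UMIs. Kit, the receptor of stem cell factor, had 0 UMIs in WT_Ctrl and 40 UMIs in 21 of 63 lymphoid members of WT_UV, which is at least 1.84-fold higher in WT_UV against a floor of 3 UMIs. T cells differed in the same direction for Kit, by 5.84 times (2.45–18.3). Klrg1, a marker of mature ILC2s in other tissues, had 1 and 7 UMIs, and Ptgdr2, the receptor for prostaglandin D2 also known as CRTH2, had 0 and 10.

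Of 15 transcription factors of innate lymphocytes, 8 entered the comparison and none differed by 2-fold, against 7.99% of all 1376 genes entered. With so few genes, a count of 0 lies near that share. Their median log2 ratio was -0.03, against -0.08 over all genes entered. Id2, an inhibitor of E proteins needed by all innate lymphoid cells, had from 0 to 9 UMIs per cell with a median of 3 in WT_Ctrl, and from 0 to 42 with a median of 6 in WT_UV. It stood at 925 CPM (704–1193) and 1016 CPM (926–1112), above T cells at 616 and 535 CPM. Ets1 stood at 737 and 771 CPM and Maf at 470.3 and 464 CPM. Bcl11b, which maintains ILC2 identity, stood at 502 and 321 CPM, a ratio of 0.639 (0.434–0.968), with 0.9 (0.802–1.01) in T cells.

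Some markers of NK cells and of T cell subsets were at 0, whereas others, among them T cell receptor constant genes, were not. Of the 13 genes of the NK and ILC1 list 9 were detected in lymphoid members of WT_Ctrl or WT_UV, and of the 16 genes of the T cell list 11. Eomes, Gzma, Klre1, Foxp3, Cd8a, Cd5 and Themis had no UMI in any lymphoid member of WT_Ctrl or WT_UV. The summed NK and ILC1 list took 0.0815% and 0.0533% of their UMIs, against 1.26% and 0.421% in NK cells, and 1 and 5 lymphoid members held 10 or more UMIs of it. A lymphoid member of WT_UV with 11887 UMIs held 72 of the 246 UMIs of this list. Of the rule genes it had only Gata3 (1 UMI), Areg (3) and Il7r (1), and its identity was not tested. The ILC3 and IL-17 list had 3 and 29 UMIs, of which Il17a took 16 in 1 cell of WT_UV. Trbc1 and Trbc2, constant genes of the T cell receptor β chain, were detected without Cd3, with Trbc1 in 13 of 20 and 43 of 63 lymphoid members, Trbc2 in 14 and 35 and Trac in 2 and 14. Trbc2 stood at 611 CPM in lymphoid members of WT_Ctrl against 725 CPM in T cells, and at 234 against 460.2 CPM in WT_UV. The T cell list as a whole took 0.165% and 0.0873% of UMIs, against 0.445% and 0.312% in T cells. Whether some of these cells were T cells with undetected Cd3 was not tested.

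Il13, whose product acts on epithelium and drives type 2 inflammation, had 23 UMIs over 20 lymphoid members of WT_Ctrl, from 0 to 5 with a median of 0 per cell. In WT_UV it had 260 UMIs over 63 lymphoid members, from 0 to 34 with a median of 2. These sums were 361 CPM (229–541) and 563 CPM (497–636), a ratio of 1.56 (1.02–2.51). Both libraries held members with and without Il13, and the ranges overlapped. T cells differed in the same direction, from 29.4 to 65.4 CPM, a ratio of 2.23 (1.62–3.13). The 5 cells with most Il13 held 73.9% of its UMIs in lymphoid members of WT_Ctrl and 44.6% in WT_UV, where 5 cells are a smaller part of the group.

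Il5, which encodes the cytokine that sustains eosinophils, had 2 UMIs in 2 lymphoid members of WT_Ctrl and 21 UMIs in 16 of WT_UV, with at most 1 and 4 per cell. The ratio of 1.45 had an interval of 0.355 to 12.8. Its level in T cells was 1.4 and 3.84 CPM, and no UMI of Il5 was found in keratinocytes, NK cells or mast cells of WT_Ctrl or WT_UV. Of the 11 lymphoid members of WT_Ctrl and 46 of WT_UV with either cytokine, 0 and 11 had both Il13 and Il5.

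Areg, which encodes amphiregulin, a ligand of the epidermal growth factor receptor, went the other way. It had 49 UMIs in 10 of 20 lymphoid members of WT_Ctrl, with at most 17 per cell, and 242 UMIs in 27 of 63 of WT_UV, with at most 41. The levels were 768 CPM (568–1016) and 524 CPM (460.3–595), a ratio of 0.683 (0.5–0.948). T cells had a like ratio of 0.657 (0.561–0.771), at 145 and 95.1 CPM. The 5 cells with most Areg held 85.7% of its UMIs in WT_Ctrl and 50.8% in WT_UV, so the level of WT_Ctrl rests on a few cells. Because 5 cells are a larger part of 20 than of 63, these percentages do not show that Areg was more concentrated in WT_Ctrl.

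Il13 and Areg were neither confined to the same cells nor kept apart. In WT_Ctrl, 6 lymphoid members had both, 3 had Il13 alone, 4 had Areg alone and 7 had neither. In WT_UV, 22 had both, 19 had Il13 alone, 5 had Areg alone and 17 had neither. All 7 markers were found together in 0 and 6 lymphoid members.

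**Figure D4:**
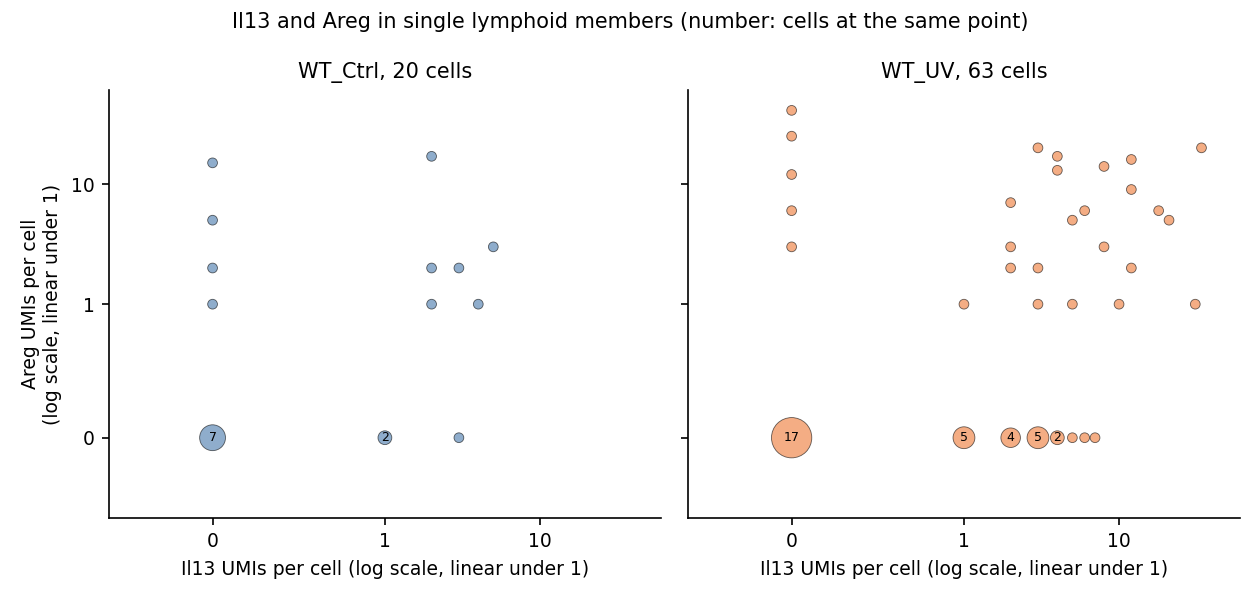
UMIs of Il13 (x axis) and Areg (y axis) in each lymphoid member of WT_Ctrl (20 cells) and WT_UV (63 cells), on log scales that are linear under 1, with the number of cells where several share a point. In both libraries members are found along both axes and between them, with 7 and 17 cells at 0 for both genes.

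The part of all Il13, Il5 and Areg UMIs that lay in lymphoid members is given as a description, since the rule selected on these genes and so raised it. Lymphoid members were 0.377% and 1.21% of the kept cells of WT_Ctrl and WT_UV and held 23 of 83 and 260 of 887 Il13 UMIs, which is 27.7% and 29.3%. T cells held 42 and 477 of these UMIs. Of Il5, lymphoid members held 2 of 5 and 21 of 68 UMIs, and of Areg 10.1% and 14.9%. In RP_UV all kept cells together had 14 UMIs of Il13 and 0 of Il5, and the lymphoid member had none of them. Il4, a type 2 cytokine that the rule had not used, had 52, 274 and 47 UMIs over the kept cells of the 3 libraries, of which lymphoid members held 0, 10 and 0.

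The stretches before the starts of Il13 and Il5 are shown because these are the type 2 cytokine genes of the rule, and because their promoter windows lie only 85.9 kb apart on the same chromosome. Both are the 250 bases upstream of the gene start in RefSeq (GRCm38.p6), on the strand of the gene, at chr11:53634703-53634952 on the minus strand for Il13 and chr11:53720544-53720793 on the plus strand for Il5. Capitals mark the letters AGATAA or TGATAA, a form of the site that GATA factors are known to bind, searched on both strands.
Il13: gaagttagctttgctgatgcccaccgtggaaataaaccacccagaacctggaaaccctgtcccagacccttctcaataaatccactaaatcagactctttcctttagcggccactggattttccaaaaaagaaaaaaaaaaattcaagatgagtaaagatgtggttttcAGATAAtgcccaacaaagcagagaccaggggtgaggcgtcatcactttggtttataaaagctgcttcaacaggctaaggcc
Il5: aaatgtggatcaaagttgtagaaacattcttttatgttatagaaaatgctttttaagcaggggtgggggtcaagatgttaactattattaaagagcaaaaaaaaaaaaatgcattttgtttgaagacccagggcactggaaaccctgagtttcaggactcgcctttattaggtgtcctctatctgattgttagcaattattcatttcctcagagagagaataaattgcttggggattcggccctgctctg

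In the window of 300 bases that also holds the 50 bases after the start, Il13 had 1 such match, whose base nearest the 5′ end lay at position -81 from the start, and Il5 had none. Among the 6 rule genes with an entry in the promoter table, Il13 was the only gene with a match (16.7%), and 18.6% of all 32851 promoters had at least 1. Only these letters were searched, so a gene without a match may still hold another form of the site. A match is a description of the letters and no evidence of binding.

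Of 26 further cytokines and secreted effectors, 21 were detected in lymphoid members, 7 entered the comparison, and 1 was at least 2-fold higher in WT_UV, against 4% of all genes entered. That gene, Cxcl2, a chemokine for neutrophils, had 4 and 80 UMIs, of which 65 lay in 1 cell of WT_UV. Without this cell it stood at 33.1 CPM in WT_UV and 62.7 CPM in WT_Ctrl. Furin, a protease that activates secreted proproteins, had 52 UMIs in 16 of 20 lymphoid members of WT_Ctrl and 701 UMIs in 60 of 63 of WT_UV. It stood at 815 and 1519 CPM, a ratio of 1.86 (1.4–2.52), and T cells had 2.61 (2.25–3.05). Furin was 6.33 and 4.52 times as high in lymphoid members as in T cells of the same library.

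Ltb, which encodes lymphotoxin β, a ligand that organizes lymphoid tissue, had 68 UMIs in 18 of 20 lymphoid members of WT_Ctrl and 261 in 50 of 63 of WT_UV. It stood at 1066 and 565 CPM, a ratio of 0.53 (0.405–0.703), with 0.867 (0.791–0.951) in T cells. Calca, which encodes the neuropeptide CGRP, had 0 UMIs in lymphoid members of WT_Ctrl and 55 in 10 of WT_UV, of which 37 lay in 1 cell. The lymphoid members held 37.2% of the Calca UMIs of all kept cells of WT_UV. Il9, Il10, Il3, Cxcl3 and Penk had no UMI in lymphoid members of WT_Ctrl or WT_UV. Tnf stood at 157 and 193 CPM and Tgfb1 at 298 and 232 CPM, with intervals of the ratio that included 1.

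Receptors for neuropeptides and lipid mediators were few, and prostaglandin receptors are given because RP mice make Cox-2 in excess. Of 25 genes, 19 were detected, 3 entered the comparison and none differed by 2-fold, against 7.99% of all genes entered. Ptger4, which encodes the prostaglandin E2 receptor EP4, had 16 UMIs in 13 of 20 lymphoid members of WT_Ctrl and 66 in 27 of 63 of WT_UV, at 251 and 143 CPM, a ratio of 0.57 (0.326–1.05). Ptgir, the prostacyclin receptor, had 2 and 29 UMIs, Ptger2 0 and 1, and Ptger1 0 and 2. Ptger3 and Ptgdr had none. EP4 was thus the prostaglandin E2 receptor that was detected in more than 2 UMIs.

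Ptgs2 itself had 0 and 2 UMIs in lymphoid members. Cysltr1, a receptor for cysteinyl leukotrienes, had 5 UMIs in 4 cells and 57 UMIs in 37 cells. Ltb4r1, a receptor for leukotriene B4, had 4 and 51 UMIs. Ramp1, a part of the CGRP receptor, stood at 266 and 175 CPM, whereas its partner Calcrl had 0 and 8 UMIs. Nmur1, the receptor for neuromedin U known from ILC2s of lung and gut, had no UMI.

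Of 23 homing genes, 21 were detected and 9 entered, 1 of them at least 2-fold lower in WT_UV, against 4% of all genes entered. That gene, Ccr2, a receptor for monocyte chemoattractants, had 14 UMIs in 6 cells and 48 UMIs in 21 cells, a ratio of 0.474 (0.257–0.931), with 1.09 (0.965–1.22) in T cells, and it turned to 1.71 with the rule applied after thinning to 1000 UMIs. Ccr6, the receptor for CCL20, a chemokine of the epidermis and hair follicle, stood at 329 and 188 CPM, a ratio of 0.573 (0.352–0.971), and was 11.2 and 4.59 times as high as in T cells. Ccr10, a receptor for the epidermal chemokine CCL27, had 8 and 14 UMIs. Cxcr6, a receptor of tissue-resident lymphocytes, stood at 517 and 578 CPM, and Itgae, the integrin chain that binds E-cadherin in the epidermis, at 298 and 455 CPM, a ratio of 1.53 (0.954–2.59).

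Among co-stimulatory and inhibitory receptors, 5 of 19 entered and none differed by 2-fold, against 7.99% of all genes entered. Lgals1, which encodes galectin-1, stood at 1959.6 and 2591 CPM, a ratio of 1.32 (1.1–1.6), and Cd69, an activation and retention marker, at 517 and 721 CPM, a ratio of 1.39 (0.974–2.06). Tnfrsf18, which encodes GITR, stood at 157 and 149 CPM. Ctla4 had 1 and 18 UMIs, of which 12 lay in 1 cell.

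Metabolic genes had 11 of 25 members in the comparison, with 1 higher and 1 lower by 2-fold, against 4% in each direction over all genes entered. Fabp5, which encodes a fatty acid carrier, had 5 and 111 UMIs, a ratio of 3.07 (1.28–9.63), of which 45 lay in 1 cell of WT_UV. T cells had a ratio of 2.14 (1.88–2.44) for it. Pgk1, a glycolytic enzyme, stood at 455 and 217 CPM, a ratio of 0.477 (0.312–0.748), with 1.23 (1.07–1.42) in T cells. Other glycolytic genes lay closer together, with Gapdh at 1113 and 1354 CPM, Aldoa at 564 and 585 CPM and Ldha at 564 and 546 CPM. Arg1, a known enzyme of ILC2s in lung, had 5 and 12 UMIs, and Pparg had none.

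Targets of cytokine and NF-κB signalling had 13 of 25 genes entered, 1 higher by 2-fold, against 4% of all genes entered, and a median log2 ratio of -0.07, against -0.08. That gene, Traf1, an adaptor of TNF receptors, had 7 and 142 UMIs, a ratio of 2.8 (1.33–7.1), with 1.29 (1.1–1.5) in T cells, and it turned to 0.804 with the rule applied after thinning to 1500 UMIs. Tnfaip3, which encodes A20, an inhibitor of NF-κB, stood at 831 and 598 CPM, a ratio of 0.72 (0.535–0.985). Gadd45b stood at 2429.8 and 1869.6 CPM, a ratio of 0.769 (0.648–0.919), and Nfkbia at 1489 and 1417 CPM.

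Most immediate early, AP-1 and heat shock genes, which respond within minutes to stimulation or stress, had ratios below 1. Of 22 entered, 6 had a ratio above 1, against 43.5% of all genes entered, and their median log2 ratio was -0.30, against -0.08 over all genes and 0.01 for the same genes in T cells. None was 2-fold lower and 2 were 2-fold higher, against 4% of all genes entered in each direction, Jun with 6 and 89 UMIs and Hspa1a with 6 and 113 UMIs, of which 38 lay in 1 cell. Junb stood at 4546 and 3046 CPM, a ratio of 0.67 (0.59–0.763), with 0.906 (0.874–0.94) in T cells. Jund had a ratio of 0.649 (0.54–0.784), Ier2 0.592 (0.456–0.777) and Btg2 0.595 (0.469–0.763), and T cells had 0.902, 0.789 and 0.627 for these genes. UVB and sequencing run cannot be told apart in these values.

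Of 16 cycling genes, 5 entered and 2 were 2-fold higher in WT_UV, against 4% of all genes entered, Top2a with 4 and 82 UMIs and Stmn1 with 2 and 99 UMIs. All 4 Top2a UMIs of WT_Ctrl lay in 1 cell. In WT_UV, 24 of the Top2a UMIs and 43 of the Stmn1 UMIs lay in 1 cell each. Members with 20 or more UMIs of the list numbered 2 of 20 and 5 of 63, and Mki67 was found in 2 and 13 lymphoid members. Stmn1 turned to 0.726 with the rule applied after thinning to 1500 UMIs. T cells had ratios of 0.948 and 0.542 for Top2a and Stmn1.

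**Figure D5:**
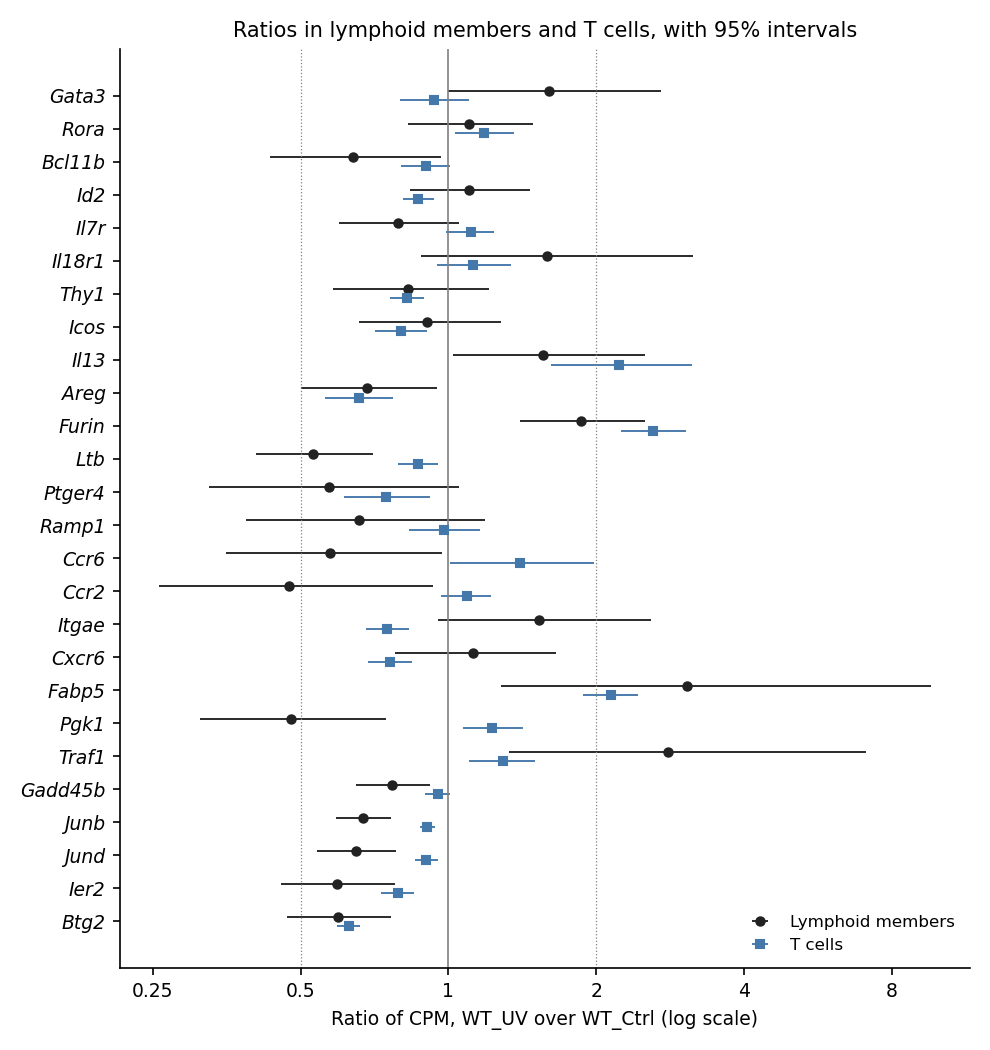
Ratio of summed CPM in WT_UV over WT_Ctrl (log scale) for 26 genes of the lists, in lymphoid members (circles) and T cells (squares), with 95% intervals that cover counting error only and dotted lines at a ratio of 2 in either direction. Furin and Il13 lie above 1 in both cell types, Areg and Btg2 below 1 in both, Ltb, Junb and Jund lie further below 1 in lymphoid members than in T cells, and Pgk1 and Ccr2 lie below 1 in lymphoid members and above 1 in T cells.

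Across all 1376 genes that entered for lymphoid members, 55 were at least 2-fold higher in WT_UV and 55 at least 2-fold lower, 4% each and 7.99% together, and the interval excluded 1 for 83 of these 110. With ratios divided by their median, the split was 70 higher and 35 lower. Several of the highest rested on few cells. Hist1h2ap, a histone gene, had 0 and 201 UMIs in 14 cells of WT_UV, 102 of them in 1 cell, at least 9.26-fold higher against the floor. Gzmc had 0 and 106 UMIs, of which 104 lay in 1 cell, and of 522 UMIs of Cst3 in WT_UV 390 lay in 1 cell, without which Cst3 stood at 298 CPM, against 282 CPM in WT_Ctrl.

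Among the higher genes Ctla2a was spread over cells. T cells and NK cells went the other way for it, whereas mast cells and keratinocytes went the same way. It had 33 UMIs in 14 of 20 lymphoid members of WT_Ctrl and 626 UMIs in 54 of 63 of WT_UV, with medians of 1.5 and 6 per cell. Its level was 517 and 1356 CPM, a ratio of 2.62 (1.85–3.84), and T cells had 0.674. NK cells stood at 1201 and 408 CPM. Mast cells had a ratio of 15.7 (4.28–131), at 39 and 613 CPM, and keratinocytes 5.67 (2.48–15.1), at 1.22 and 6.92 CPM. Crip1 had a ratio of 1.97 (1.62–2.42), with 1.46 in T cells and 319 of 1541 UMIs in 1 cell. Actb, the cytoskeletal actin, stood at 8277 and 14586 CPM, a ratio of 1.76 (1.61–1.93), with 1.27 in T cells. The survival genes Bcl2a1d and Bcl2a1b had ratios of 3.55 (1.59–9.82) and 4.04 (1.54–15.1), and as near-identical copies they may share reads. In WT_UV, 67 of 154 UMIs of Bcl2a1d and 73 of 117 of Bcl2a1b lay in 1 cell each, without which they stood at 196 and 99.4 CPM, and in WT_Ctrl 5 of 6 UMIs of Bcl2a1d lay in 1 cell. With the limit on UMIs of other cell types, which left 10 cells of WT_Ctrl and 19 of WT_UV, their ratios turned to 0.359 and 0.718.

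The 10 lowest by the interval bound nearest 1 were Ltb, Ppp1r15a, Cdkn1b, Ms4a4b, Trbc2, Atp5d, Gimap1, Snx5, Phf3 and Neurl3. Ppp1r15a, a stress response gene also called Gadd34, had 44 UMIs in 16 of 20 cells and 108 in 39 of 63, a ratio of 0.339 (0.237–0.493), with 0.785 in T cells. Of the 44 UMIs of Ppp1r15a 19 lay in 1 cell of WT_Ctrl, without which its level there was 408 CPM in place of 689.8, against 234 CPM in WT_UV. Cdkn1b, which encodes the cell cycle inhibitor p27, stood at 502 and 162 CPM, a ratio of 0.324 (0.211–0.506), with 0.681 in T cells. Trbc2, a constant gene of the T cell receptor, stood at 611 and 234 CPM, a ratio of 0.383 (0.263–0.567), with 0.635 in T cells. The Trbc2 ratio turned to 1.05 with the limit on UMIs of other cell types, which left 10 cells of WT_Ctrl and 19 of WT_UV.

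Some genes outside the rule set lymphoid members apart from T cells in both libraries. Hlf, a PAR bZIP transcription factor, was 12.4 and 7.46 times as high in lymphoid members as in T cells of WT_Ctrl and WT_UV, with a UMI in 13 of 20 and 54 of 63 lymphoid members at 674 and 572 CPM. Ccr6 and Furin followed, and then Samsn1 at 3.73 and 3.43 times, Znrf1 at 3.94 and 2.99, Ppp1cc at 2.61 and 2.93, Aebp2 at 2.62 and 2.38, Emb at 2.44 and 2.28, Nfkb1 at 3.63 and 2.25 and Cdc42ep3 at 2.52 and 2.2. The ratio between WT_UV and WT_Ctrl was 0.848 (0.613–1.2) for Hlf and 1.01 (0.664–1.6) for Znrf1, both with intervals that included 1. The T cells compared here also held 2.21% and 2.1% of their UMIs in the macrophage and dendritic cell panel, which the lymphoid members could not do by their definition.

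Over all members, the 2 wild-type libraries held a different mix of cells. Keratinocyte-panel members were 52.9% of members in WT_Ctrl and 19.5% in WT_UV, and macrophage and dendritic cell panel members 7.84% and 8.05%. How far this mix sets the ratios below was not tested. Of 1277 genes entered, 124 were at least 2-fold higher (9.71%) and 67 at least 2-fold lower (5.25%). Il13 stood at 55.8 CPM in members of WT_Ctrl and 262 CPM in those of WT_UV, a ratio of 4.69 (3.06–7.52), against 1.56 in lymphoid members alone. Icos had a ratio of 2.32 (1.72–3.17) over all members and 0.906 in lymphoid members, and Il7r 2.21 (1.71–2.88) and 0.788. With the rule applied after thinning to 1000 UMIs, the ratios over all members were 0.99 for Il13, 0.624 for Icos and 0.715 for Il7r. All 4 of the homing genes that entered were 2-fold higher over all members, while 5 of 11 keratinocyte genes were 2-fold lower.

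Epidermal genes differed in how many members carried them. Krt17 had 1014 UMIs in only 4 members of WT_Ctrl and 6 UMIs in WT_UV, Krt79 404 UMIs in 3 members and 4 UMIs, and Krt15 662 UMIs in 22 members and 117 UMIs in 9. The myeloid genes Mgl2 and Lyz2 were higher in members of WT_UV, at 20.4 (8.62–63.3) and 4.85 (3.63–6.6) times WT_Ctrl. In RP_UV, where 5 of 7 members were of the keratinocyte panel, members had 22 UMIs of Areg, 44 of Rora and 20 of Gata3, and none of Il13 or Il5. Of the 22 UMIs of Areg, 13 lay in the 1 member of the Schwann cell and melanocyte panel.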

How the data were processed

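Cells of dorsal skin were enriched for CD45 with magnetic beads and sequenced with 10x Genomics 3′ chemistry, 1 library per group. The deposited files hold UMI counts per gene and barcode, which per the file headers the authors made with Cell Ranger 6.1.1, and the submitters' processing notes name the mouse build mm10. Cells were kept with under 10% mitochondrial UMIs, more than 200 genes and fewer than 4000 genes (6000 in WT_UV), the limits of the study's methods. Raw counts were used without integration in python 3.11.15, numpy 2.4.6, scipy 1.17.1, pandas 2.3.3, scanpy 1.11.5 and matplotlib 3.10.9. Doublets were not removed, since Scrublet called 1.38% of cells of WT_Ctrl but only 0.0191% of WT_UV and 0.0165% of RP_UV, too few in the latter libraries for a working call. Leaving out the 5% of cells with the highest scores was an alternative.

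The members and gene lists were chosen with earlier results of these data known. Counts were summed over members and scaled to CPM. A gene entered a comparison when the mean of both libraries was at least 100 CPM, and was counted as higher or lower at a ratio of 2. Intervals are exact Poisson for levels, exact conditional for ratios of levels, Clopper-Pearson for shares and from the log ratio for ratios of shares. List medians are of log2 ratios with a pseudocount of 10 CPM, and a count of 0 was set against a floor of 3 UMIs. Named genes were the 7 rule genes, up to 4 highest and 4 past the fold in each list, the 10 highest and 10 lowest by the interval bound nearest 1, and the 10 highest over T cells. Some genes that this rule names are not reported here. Other genes were named for their known role or after their values were seen. T cells, NK cells, mast cells and keratinocytes were picked by UMIs of their own marker genes. Members were clustered by the Leiden method on variable genes. The scripts were checked on simulated counts.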

Additional observations from a re-analysis of the deposited data

How the results depend on the processing

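No paired analysis was possible because each group has 1 library. Lymphoid members, their alternatives, the limits on cycling and NK list UMIs and the panel limits of 0.5% and 2% were chosen after seeing the data. The share of members in WT_UV over WT_Ctrl, 1.73, was 5.05 with the rule applied after thinning to 1500 UMIs, 3.34 at 1000 UMIs, 3.75 with at least 4 markers, 3.44 without Rora and 3.18 with Ptprc demanded. With at least 2 markers it fell below 1, to 0.867 (0.703–1.07), with an interval that included 1. RP_UV over WT_UV, 0.0693, was 0.181 with at least 2 markers, 0.0146 with at least 4 and 0.0141 without Rora, and RP_UV over WT_Ctrl was 0.0486 without Rora. For lymphoid members the WT_UV ratio of 3.2 was 5.6 after thinning the whole rule to 1500 UMIs, where 27 of 75 cells of WT_UV had Cd3 UMIs before thinning, and 1.93 (0.899–4.15) with the limit on UMIs of other cell types. RP_UV had no member left after thinning to 1000 UMIs or with Ptprc demanded, and no lymphoid member either there or with at least 4 markers, without Rora or with the limit on other cell types, so those ratios have no value. Over all members the number of genes 2-fold higher, 124, was 219 with the gene limit of 4000 in every library, 72 after thinning to 1000 UMIs, 75 without Rora, 50 with Ptprc, 285 at a mean of 50 CPM, 61 at 200 CPM, 4114 with no filter and 230 at a fold of 1.5. The number lower, 67, was 180 with the gene limit, 131 and 112 after thinning to 1500 and 1000 UMIs, 115 with at least 2 and 112 with at least 4 markers, 102 without Rora, 42 with Ptprc, 114 with the limit on other cell types, 163 at 50 CPM, 33 at 200 CPM, 2203 with no filter and 199 at a fold of 1.5. In lymphoid members the number higher, 55, was 93 with markers thinned, 171 with the limit on other cell types, 211 at 50 CPM, 21 at 200 CPM, 5115 with no filter and 173 at a fold of 1.5. The number lower, also 55, was 119 and 94 after thinning the rule to 1500 and 1000 UMIs, 162 with markers thinned, 91 with at least 4 markers, 147 with the limit on other cell types, 35 after centring on the median gene, 257 at 50 CPM, 12 at 200 CPM, 1735 with no filter and 221 at a fold of 1.5. A turn of direction was looked for only in named genes past the fold of 2 with an interval that excluded 1. Other named genes could change direction without being listed here. Over all members, the ratio turned for Il13 (0.99), Il7r (0.715) and Icos (0.624) after thinning to 1000 UMIs, for Icos with at least 4 markers (0.888), for Il7r (0.943) and Icos (0.915) without Rora, and for Il7r with Ptprc (0.944). In lymphoid members it turned for Traf1 (0.804), Stmn1 (0.726) and Cst3 (0.904) after thinning to 1500 UMIs, for Cst3 with markers thinned (0.804), with at least 4 markers (0.926) and without Rora (0.948), for Ccr2 (1.71), Cst3 (0.821) and Bcl2a1d (0.837) after thinning to 1000 UMIs, and for Trbc2 (1.05), Bcl2a1d (0.359) and Bcl2a1b (0.718) with the limit on other cell types. The cause was not tested in any of these. Of all other values of named genes in lymphoid members under the alternatives, 1217 moved by less than their counting interval and 68 by more. In RP_UV a single lymphoid member allows no level to be given.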
